A study of Mus musculus with 8 samples.

Results

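Deletion of the vesicular glutamate transporter VGlut2 from thalamic neurons was compared with floxed controls in NeuN-negative nuclei of the mouse visual cortex (VC). The comparison comprised 4 of the 8 libraries of the series, chosen by the genotype in the labels, with 22781 of 44021 nuclei. VGlut2 cKO (11601 nuclei) had the genotype VGlut2 f/f;ROR acre, and VGlut2 WT (11180 nuclei) had the genotype VGlut2 f/f without cre. All mice of both groups were homozygous for the floxed allele, on the C57BL/6J strain, at postnatal day (P) 14. Each group had 1 male and 1 female library, with tissue of 2 mice pooled in every library. Cre was knocked in at Rora (chromosome 9, 68653786 to 69388246, plus strand, mm10), which is active in thalamic neurons and also outside the thalamus. The deleted gene is Slc17a6 (chromosome 7, 51622006 to 51671119, plus strand). Only the cKO carried cre, so the cre allele and the deletion cannot be told apart. Expression per gene was not analysed here, so neither the loss of Slc17a6 nor the markers behind each class name were examined.

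VGlut2 loads glutamate into synaptic vesicles, and relay neurons of the thalamus depend on it to excite the cortex. Thalamic axons carry visual input to the VC, where they end most densely in layer 4. The cell bodies of thalamic neurons lie outside the dissected tissue, and the nuclei profiled here are mainly glia and vascular cells around their terminals. At P14 these cells are still maturing: astrocytes are finishing division and taking on layer-specific states, and oligodendrocyte precursor cells (OPCs) are giving rise to the first myelinating cells.

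Nuclei had been isolated from frozen tissue, sorted as NeuN-negative and barcoded by droplet-based sequencing, and the libraries were prepared and sequenced together. The study handled 1 WT and 1 mutant sample on each day. Whether the same-sex libraries shared a day is not given in the sources used here, so sex and day cannot be told apart. The male and female cKO libraries held 5920 and 5681 nuclei, and the WT libraries 5821 and 5359. Their totals were 8824112 and 11323777 unique molecular identifiers (UMIs, counted RNA molecules) in cKO, against 9499959 and 9375839 in WT. Median UMIs per nucleus were 1343 in male cKO and 1876 in female cKO, against 1500 and 1613 in WT. The cKO libraries were therefore the shallowest and the deepest of the 4. Between these libraries, 71 of 22710 barcode sequences occurred more than once, 18 of them with the same class in each.

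The first comparison asked whether the loss of thalamic glutamate release was accompanied by a change in which cells were present. Nuclei were assigned to the authors' classes, with the 4 astrocyte groups joined, which gave 17. Shares within a library are not independent, since a class takes a smaller one where another takes more. In cKO, astrocytes, the glia that clear glutamate from synapses, were 26.4% of the male and 24.6% of the female library, against 27.5% and 28.2% in WT. Both cKO shares lay below both WT shares, a separation that is frequent by chance with so few libraries. Microglia, the resident immune cells that prune synapses, were 29.0% and 26.3% in cKO, against 24.0% and 26.4% in WT. The male libraries carried this gap, and the female ones were nearly level. OPCs were 16.5% and 21.6% in cKO, against 20.2% and 17.6% in WT, so the cKO values lay on either side of the WT ones.

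Along the oligodendrocyte lineage, newly formed oligodendrocytes (NFOL) were 5.44% and 6.11% in the male and female cKO libraries, against 6.75% and 5.92% in WT. Myelin-forming oligodendrocytes (MFOL), the next stage, were 0.726% and 0.563% in cKO, against 0.807% and 0.858% in WT. Mature oligodendrocytes (MOL), which maintain myelin, were 2.92% and 3.05% in cKO, against 2.16% and 3.23% in WT. MFOL was the stage with both cKO libraries below both WT libraries, on 75 nuclei in cKO and 93 in WT. NFOL and MOL overlapped between the genotypes.

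Vascular and border cells were compared in the same way. Endothelial cells (EC), which line the vessels, stayed between 2.09% and 2.16% in all 4 libraries, with both cKO values just below both WT values. Pericytes (PC), which wrap the capillaries, were 1.35% and 1.53% in the male and female cKO libraries, against 1.68% and 1.31% in WT. Perivascular macrophages (PVM), the immune cells of the vessel sheath, were 2.06% and 2.09% in cKO, against 1.99% and 2.30% in WT. Of the vascular and leptomeningeal cells (VLMC), the fibroblast-like cells of vessels and meninges, VLMC-Col15a1 was 4.90% and 4.68% in cKO, against 4.31% and 4.50% in WT. VLMC-Pia was 2.18% and 1.69% in cKO, against 2.22% and 1.46% in WT, and VLMC-Slc16a11 was 1.25% and 1.60%, against 1.41% and 1.29%. The cKO values of VLMC-Col15a1 lay above the WT ones, whereas those of the other VLMC classes overlapped. Among all classes compared, only astrocytes, MFOL, EC and VLMC-Col15a1 had no overlap between the genotypes. With so few libraries such separations are frequent by chance, and they were not read as genotype effects.

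**Figure D1:**
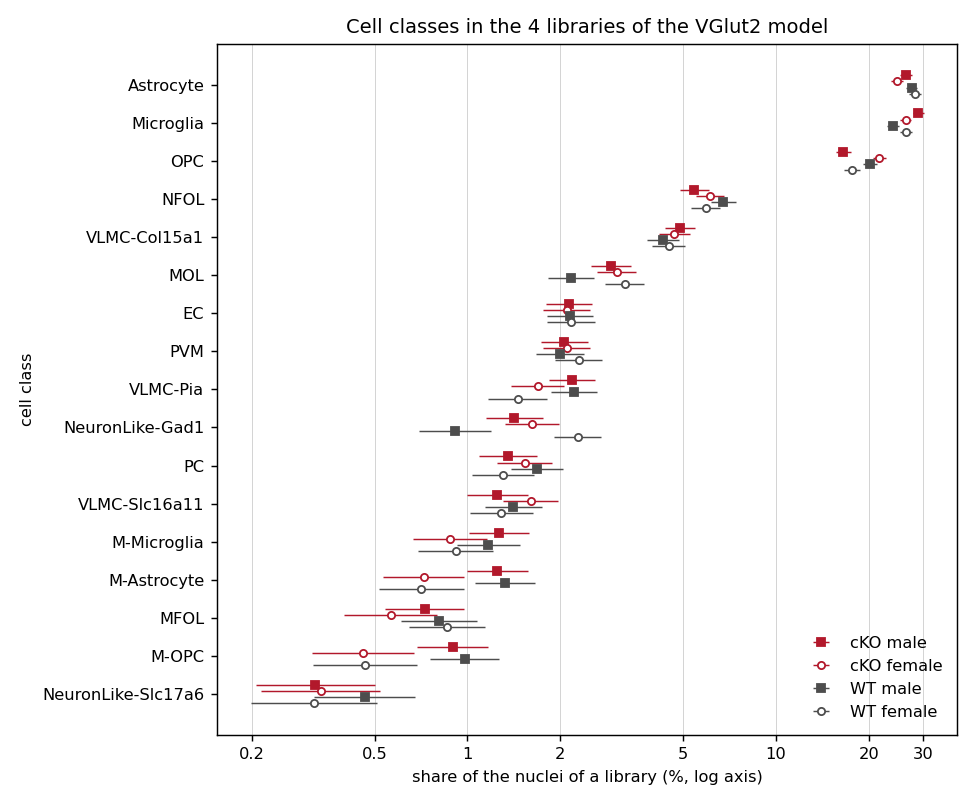
Share of each of the 17 classes among the nuclei of a library (log axis; M- marks mitotic classes), with cKO in red and WT in grey, squares for male and open circles for female libraries, and bars for Wilson 95% intervals, which cover counting error only. Astrocytes in cKO (26.4% and 24.6%) lay left of WT (27.5% and 28.2%), while mitotic OPCs separated by sex, at 0.895% and 0.979% in the male cKO and WT libraries and 0.458% and 0.467% in the female ones.

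No class passed the test between cKO and WT. In limma, 0 of 17 classes (0%) passed an adjusted p of 0.05, 0 had an unadjusted p under 0.05, and edgeR called 0 with 0 unadjusted. The estimates are differences in the log2 odds of a share, cKO minus WT. They were 0.18 in microglia (95% interval -0.49 to 0.85), 0.18 in MOL (-0.73 to 1.08), -0.18 in astrocytes (-0.82 to 0.47) and 0.01 in OPCs (-0.60 to 0.62), each with an adjusted p of 0.980 in limma. These widths leave room for sizeable changes in either direction. Larger in size were the differences of MFOL (-0.38) and NeuronLike-Slc17a6 (-0.23), classes with fewer than 20 nuclei in some library of the series. The p-values measure the spread between libraries of different pooled mice, which here includes sex. An exact permutation of 2 libraries against 2 cannot reach 0.05.

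Because each genotype had 1 library of each sex, the same contrast was also read within the male and within the female libraries. In 5 of 17 classes the sign was shared by males and females: astrocytes, EC, MFOL and mitotic OPCs had lower shares in cKO, and VLMC-Col15a1 a higher one, none past the test. The astrocyte log2 odds ratio was -0.08 in males (95% counting interval -0.20 to 0.03) and -0.27 in females (-0.39 to -0.15). OPCs had -0.35 in males (-0.49 to -0.22) and 0.37 in females (0.23 to 0.50). NeuronLike-Gad1 nuclei, named for the enzyme that makes GABA, had 0.64 in males (0.15 to 1.14) and -0.50 in females (-0.89 to -0.11). OPCs and NeuronLike-Gad1 were the 2 classes whose intervals lay on opposite sides of 0. Counting intervals leave out the variation between mice, and with 1 library per sex and genotype the difference between the sexes has no replicate test.

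**Figure D2:**
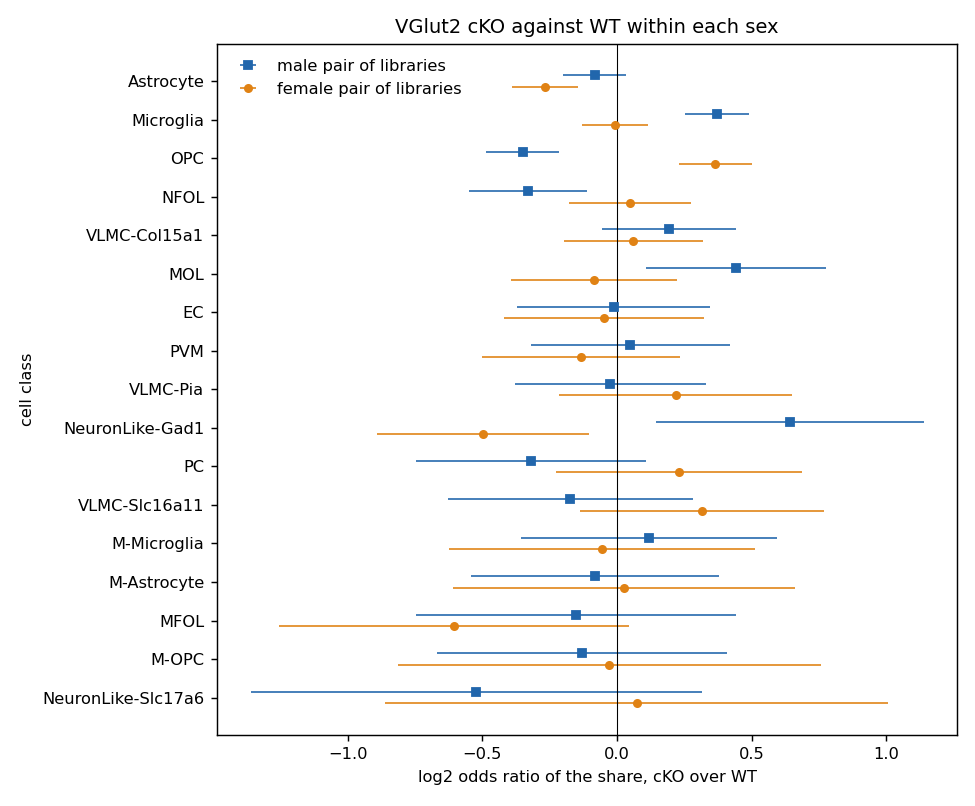
Log2 odds ratio of each class share, cKO over WT, within the male (blue squares) and the female (orange circles) libraries, with 95% counting intervals. The OPC ratio was -0.35 in males and 0.37 in females, and 5 of 17 classes had the same sign in both sexes.

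The size of the genotype gap was then set beside the gap between the sexes. Averaged over sexes, the absolute log2 difference between cKO and WT had a median of 0.079 over the 17 classes. Averaged over genotypes, the difference between females and males had a median of 0.121, and it was the larger gap in 11 of 17 classes. Mitotic OPCs differed by -0.08 for cKO minus WT and by -1.01 for female minus male. Mitotic astrocytes had -0.03 for genotype and -0.85 for sex. The genotype gap was the larger in astrocytes, microglia, NFOL, MFOL, EC and VLMC-Col15a1. These gaps are descriptions of 4 libraries, and sex and day cannot be told apart in them.

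Astrocytes of the VC were next divided into the authors' layer groups, since thalamic input reaches some layers more than others. Upper astrocytes were 41.0% of the astrocytes in the male cKO library and 30.3% in the female, against 41.0% and 30.2% in WT. Mid astrocytes were 31.4% and 48.0% in cKO, against 36.1% and 46.9% in WT. Deep astrocytes were 18.2% and 13.0% in cKO, against 14.0% and 14.2% in WT. White matter (WM) astrocytes were 9.40% and 8.65% in cKO, against 8.86% and 8.66% in WT. The upper share was nearly level between the genotypes in each sex, while the male cKO library had more deep and fewer mid astrocytes than the male WT library.

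Of the 4 groups 0 (0%) passed in limma, with 0 at an unadjusted p under 0.05. The log2 odds difference, cKO minus WT, was 0.15 in deep (95% interval -0.94 to 1.23), -0.12 in mid (-1.20 to 0.96) and 0.05 in WM astrocytes (-0.97 to 1.07), each with an adjusted p of 0.994 in limma. In the male libraries alone the deep group had a log2 odds ratio of 0.44 (95% counting interval 0.17 to 0.72) and the mid group -0.30 (-0.52 to -0.09). In the female libraries the values were -0.15 (-0.45 to 0.16) in deep and 0.06 (-0.15 to 0.27) for mid astrocytes. The sex gap was the larger one in 4 of 4 groups, with a median of 0.477 against 0.083 for genotype.

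Ratios within a lineage described division and maturation apart from the other cells of a library. Mitotic nuclei were 4.52% of the astrocyte lineage in the male cKO library and 2.85% in the female, against 4.58% and 2.45% in WT. In the OPCs they were 5.14% and 2.07% in cKO, against 4.63% and 2.58% in WT, and in microglia 4.19% and 3.23%, against 4.64% and 3.34%. As classes of the whole library, mitotic astrocytes were 1.25% and 0.722% in cKO, against 1.32% and 0.709% in WT, and mitotic microglia 1.27% and 0.880%, against 1.17% and 0.914%. For all 3 cell types, both male libraries lay above both female libraries, whichever the genotype. With so few libraries a separation by sex is as frequent by chance as one by genotype. Sex and day cannot be told apart in it.

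**Figure D3:**
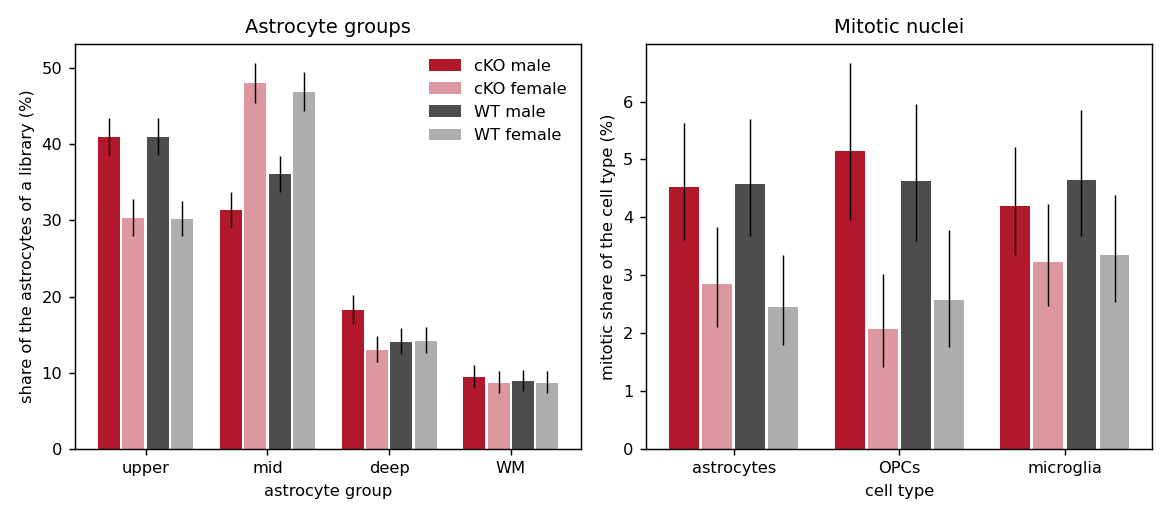
Left, astrocyte groups as a share of the astrocytes of a library. Right, mitotic nuclei as a share of the cell type. Bars are single libraries (red cKO, grey WT, dark male, pale female) with Wilson 95% intervals, which cover counting error only. Upper astrocytes stood at 41.0% in both male libraries, against 30.3% (cKO) and 30.2% (WT) in the female ones, and mitotic OPCs at 5.14% (cKO) and 4.63% (WT) in males, against 2.07% and 2.58% in females.

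Commitment and myelination had no common direction either. NFOL, MFOL and MOL together were 34.3% and 30.6% of the oligodendrocyte lineage in the male and female cKO libraries, against 31.5% and 35.6% in WT. Of these committed cells, MFOL and MOL were 40.1% and 37.1% in cKO, against 30.6% and 40.9% in WT. The male WT library had the lowest share of MFOL and MOL, and the other libraries lay close together. EC were 61.2% and 57.8% of EC and PC together in cKO, against 56.1% and 62.4% in WT, and PVM were 6.64% and 7.37% of PVM and microglia, against 7.67% and 7.99%.

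Of the 8 ratios 0 (0%) passed in limma, with 0 at an unadjusted p under 0.05. The differences of largest size were 0.30 (95% interval -1.0 to 1.59) for Gad1 among neuron-like nuclei, 0.19 (-0.85 to 1.23) for MFOL and MOL among committed cells and -0.18 (-0.95 to 0.60) for PVM among PVM and microglia. Each had an adjusted p of 0.967 in limma. The ratios for PVM and for mitotic microglia were lower in cKO in both sexes, and the other 6 changed sign between the sexes.

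Neuron-like nuclei, which the NeuN sort was meant to remove, were few. NeuronLike-Slc17a6, an excitatory class named for the deleted gene, held 19 and 19 nuclei in the male and female cKO libraries (0.321% and 0.334%), against 27 and 17 in WT (0.464% and 0.317%). NeuronLike-Gad1, the inhibitory class, was 1.42% and 1.62% in cKO, against 0.910% and 2.28% in WT. The WT libraries held both its lowest and its highest share.

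The number of UMIs in NeuronLike-Gad1 nuclei separated the male from the female libraries. Their median was 1200.5 UMIs in male cKO and 2749 in female cKO, against 1350 and 2411 in WT. Above 3000 UMIs, a limit chosen after the values were seen, lay 5.95% of them in the male cKO library (5 of 84) and 44.6% in the female (41 of 92). In WT these shares were 5.66% (3 of 53) and 42.6% (52 of 122). The Wilson 95% intervals were 2.57 to 13.2% and 34.8 to 54.7% in the male and female cKO libraries, against 1.94 to 15.4% and 34.2 to 51.5% in WT, and cover counting error only. Since the limit followed from the values, this is a description of 4 libraries. The part of sex or day in this split cannot be told apart, and which cells these nuclei were was not examined.

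RNA recovered per nucleus was compared in 15 classes, those that had 20 nuclei or more in all 8 libraries. In astrocytes the median was 1720 UMIs in the male cKO library and 2378 in the female, against 1860 and 1959 in WT. In microglia it was 797 and 1089.5 in cKO, against 809 and 929 in WT, and in OPCs 1690 and 2115.5, against 1783 and 1866. MOL had the most RNA, with medians of 3262 and 4442 UMIs in cKO, against 3499 and 3721 in WT. In each of these classes the cKO libraries were the lowest and the highest of the 4, as they were in depth over all nuclei. In females the cKO to WT ratio lay above 1 in 15 of 15 classes (1.06 to 1.24, median 1.15). In males it lay above 1 in 4 of 15 (0.880 to 1.10, median 0.964).

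In limma 0 of 15 classes (0%) passed for UMIs per nucleus, with 0 at an unadjusted p under 0.05. The log2 difference, cKO minus WT, was 0.08 (95% interval -0.31 to 0.48) in astrocytes, 0.10 (-0.29 to 0.50) in microglia, 0.05 (-0.34 to 0.44) in OPCs, 0.19 (-0.20 to 0.58) in VLMC-Pia, 0.18 (-0.21 to 0.57) in mitotic astrocytes and 0.16 (-0.23 to 0.55) in PC, each with an adjusted p of 0.960. Limma gave every class the same error in this fit. The count changed with the cKO library left out, which also leaves the sexes unequal between the genotypes. Without the male cKO library 8 classes passed, among them astrocytes (0.32, adjusted p = 0.0368) and NeuronLike-Gad1 (0.61, adjusted p = 0.00924). Without the female cKO library 1 class passed, NeuronLike-Gad1, with a difference of -0.59 (adjusted p = 0.0132). The WT medians of this class themselves differed between the sexes, as given above, and the part of depth and of sex in these calls was not tested.

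To set aside the depth of a library, each median was divided by the geometric mean of the 15 medians of that library, which centres the classes of a library on 1. The ratio of these relative UMIs, cKO over WT, therefore lies around 1 by construction, and ran from 0.913 to 1.14 in males and from 0.920 to 1.08 in females. Mitotic astrocytes had relative UMIs of 0.964 and 1.002 in the male and female cKO libraries, against 0.902 and 0.928 in WT. EC had 0.683 and 0.628 in cKO, against 0.726 and 0.680 in WT, and VLMC-Pia had 1.60 and 1.42, against 1.40 and 1.38. The genotypes did not overlap in mitotic astrocytes and VLMC-Pia. The same held for PC (0.641 and 0.613 in cKO, against 0.591 and 0.588 in WT) and, by a very small margin, for PVM. They overlapped in all other classes, EC among them. With so few libraries such separations are frequent by chance, and they were not read as traits of these classes.

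Of the 15 classes 0 (0%) passed in limma for relative UMIs, and mitotic astrocytes alone had an unadjusted p under 0.05. Their log2 difference was 0.10 (95% interval 0.001 to 0.205, adjusted p = 0.722), higher in cKO in both sexes, on 115 nuclei in each genotype. With the mean of log2 UMIs in place of the median it was 0.05 (unadjusted p = 0.459, adjusted p = 0.920 in limma), and 0 classes then had an unadjusted p under 0.05. VLMC-Pia had 0.12 (-0.06 to 0.29) and EC -0.10 (-0.29 to 0.09), each with an adjusted p of 0.758. With a block for the same-sex pair, 4 classes had an unadjusted p under 0.05 in limma. EC, mitotic astrocytes and VLMC-Pia were among these, and 0 classes passed (lowest adjusted p = 0.0709 in limma). Astrocytes had 0.01 (-0.13 to 0.15, adjusted p = 0.954), microglia 0.03 (-0.09 to 0.15, adjusted p = 0.885) and OPCs -0.02 (-0.15 to 0.10, adjusted p = 0.924).

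**Figure D4:**
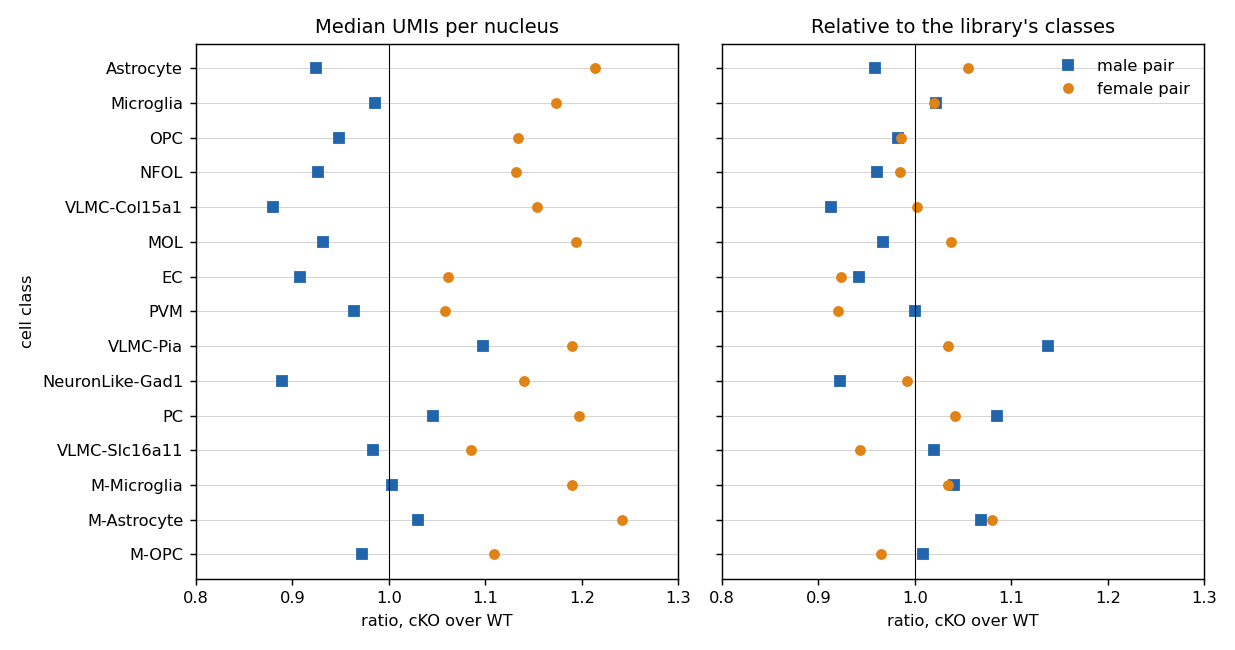
Ratio of cKO over WT in the male (blue squares) and the female (orange circles) libraries for each of 15 classes. Left, median UMIs per nucleus, where 15 of 15 female and 4 of 15 male ratios lay above 1. Right, the same medians relative to the geometric mean over the classes of the library, where the ratios centre on 1 by construction and mitotic astrocytes lay above 1 in both sexes.

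The number of genes detected at a given number of UMIs, a measure of how varied the RNA of a nucleus is, was close between genotypes. In limma 0 of 15 classes (0%) passed, with 0 at an unadjusted p under 0.05, and the differences ran from -0.0091 to 0.0138 on the log2 scale. The interval was -0.05 to 0.05 in astrocytes and in microglia, -0.04 to 0.06 in OPCs and in NFOL, and -0.03 to 0.05 in NeuronLike-Gad1, each with an adjusted p of 0.998. These intervals are on another scale than the log2 odds of class shares, so their widths cannot be set beside each other.

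The mitochondrial share of UMIs, often read as a sign of nuclear purity, was 3.87% and 3.78% in the male and female cKO libraries, against 3.77% and 3.85% in WT. By class it was higher in cKO in 14 of 15 classes in males and in 6 of 15 in females. VLMC-Pia had 4.15% and 4.01% in cKO, against 3.87% and 3.94% in WT. In limma 0 of 15 classes (0%) passed, with 0 at an unadjusted p under 0.05. The log2 difference was 0.06 (95% interval -0.03 to 0.15) in VLMC-Pia, 0.04 (-0.05 to 0.13) in VLMC-Slc16a11, 0.04 (-0.05 to 0.12) in EC, -0.01 (-0.09 to 0.08) in astrocytes, 0.00 (-0.09 to 0.08) in microglia and 0.00 (-0.09 to 0.09) in OPCs, each with an adjusted p of 0.973.

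The spread of UMIs among the nuclei of a class was measured as the ratio of the 90th to the 10th percentile. VLMC-Col15a1 had ratios of 2.19 and 2.00 in the male and female cKO libraries, against 2.81 and 2.52 in WT. PC had 1.94 and 1.65 in cKO, against 2.25 and 2.10 in WT, and mitotic microglia had 2.53 and 1.88, against 2.08 and 1.66. In 8 of 15 classes the spread was lower in cKO in both sexes, and in 2 it was higher in both. All classes come from the same 4 libraries, so these counts are not of independent classes. In limma 0 of 15 classes (0%) passed, with 0 at an unadjusted p under 0.05. The log2 difference was -0.34 (95% interval -0.77 to 0.08) in VLMC-Col15a1, -0.28 (-0.69 to 0.13) in PC, 0.23 (-0.20 to 0.66) in mitotic microglia, -0.11 (-0.52 to 0.30) in astrocytes, -0.12 (-0.53 to 0.29) in microglia and -0.07 (-0.48 to 0.34) in OPCs, each with an adjusted p of 0.818. With the 75th and 25th percentiles instead, 0 classes passed in limma and 1 had an unadjusted p under 0.05 (lowest adjusted p = 0.414).

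Finally, the place of the nuclei in the authors' 2-dimensional map (UMAP) was used to ask whether cKO and WT nuclei of a class lay apart. For each pair of libraries, the share of the 15 nearest neighbours that came from the other library was divided by the share its nuclei would give at random, so that 1 means complete mixing. The cKO and WT libraries of the same sex mixed at 0.982 in males and 0.984 in females, averaged over 15 classes. The 4 pairs of different sex lay between 0.882 and 0.921 (0.908 ± 0.017, SD over pairs that share libraries), and the lowest of them joined both cKO libraries.

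Microglia showed this most. Their cKO and WT libraries of the same sex mixed at 1.001 in males and 0.943 in females, whereas libraries of different sex mixed at 0.552 and 0.608 between genotypes, at 0.537 within cKO and at 0.599 within WT. NeuronLike-Gad1 nuclei mixed at 0.980 between genotypes of the same sex, against 0.798 between genotypes and 0.789 within a genotype where the sex differed. For astrocytes these values were 0.945, 0.853 and 0.834, and for mitotic microglia 0.953, 0.810 and 0.842. In the 11 other classes all 3 averages were at least 0.92. The map had been made after the authors' batch correction, and its distances are not expression differences, so these values describe where nuclei were placed. Sex and day cannot be told apart in them.

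**Figure D5:**
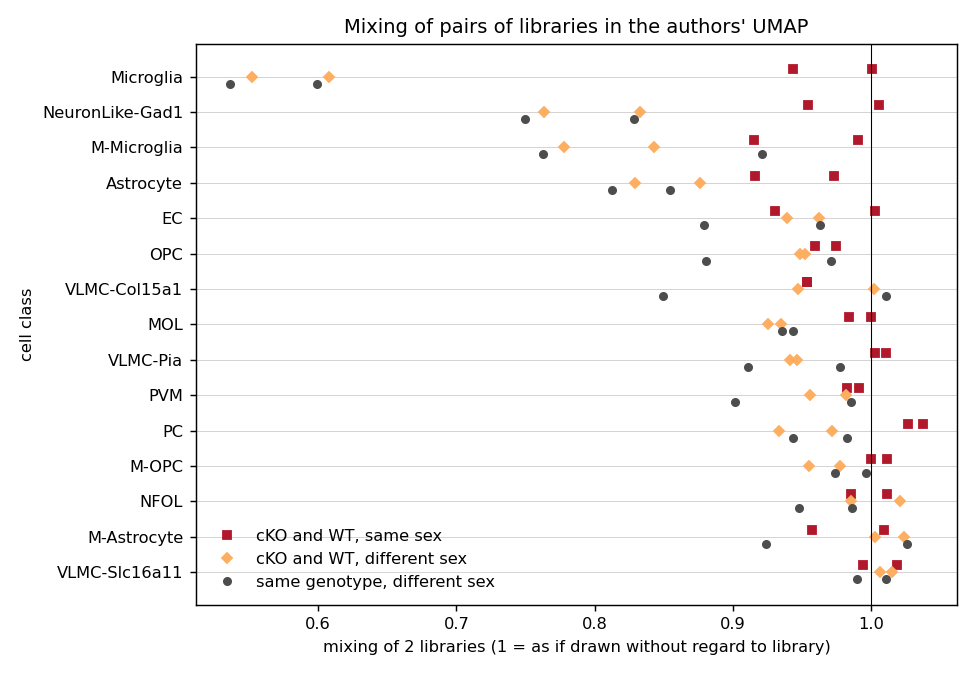
Mixing of pairs of libraries in the authors' UMAP for each of 15 classes, where 1 means that neighbours come from both libraries as their numbers would give. Red squares are cKO and WT of the same sex, yellow diamonds cKO and WT of different sex, and grey circles the same genotype of different sex. Microglia of different sex lay between 0.537 and 0.608, and those of the same sex at 1.001 and 0.943. Sex and day cannot be told apart here.

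The other model of the series, Ip3r2 KO against Ip3r2 WT, lacks a calcium channel of astrocyte stores and has 4 libraries of its own. The difference between the VGlut2 contrast and the Ip3r2 contrast was tested in the same limma fits. It called 0 of 17 classes for shares, 0 of 4 astrocyte groups, 0 of 8 ratios and 0 of 15 classes for each of the other measures. Unadjusted, 1 class share (NeuronLike-Slc17a6) and 1 relative UMI value (PC) had a p under 0.05, with lowest adjusted p-values of 0.712 and 0.128 in these families. No measure was therefore shown to be particular to the VGlut2 deletion.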

How the data were processed

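Per the submitters' processing notes, reads were processed with Cell Ranger on mm10. By the study's methods, the authors dropped barcodes with under 200 genes, removed doublets with Scrublet, combined samples with Scanorama, clustered with Leiden and named clusters from markers. The deposited UMIs and genes per nucleus are counts without normalization. The deposited mitochondrial value is a fraction of UMIs (whole when multiplied by UMIs, within 0.001, in 44021 of 44021 nuclei), with its genes not given in the sources here. The deposited UMAP and tSNE coordinates were used as a score. Upper-Astro-1 and Upper-Astro-2 are called upper and mid. Model, genotype and sex matched the labels in 8 of 8 libraries.

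Shares were log2 odds with 0.5 added, and UMIs log2 medians, with the library as replicate. Genes at equal UMIs were mean residuals from a quadratic fit of log2 genes on log2 UMIs within a class. All 8 libraries, in 4 groups, entered limma (3.58.1, R 4.3.3), with Benjamini-Hochberg adjustment over classes, two-sided. edgeR (4.0.16) was an alternative for shares. Of the fits, only the limma fit of class shares was tried on simulated counts. Every class is given. Differences are given for astrocytes, microglia, OPCs and the 3 of largest size among classes with 20 or more nuclei per library. For shares, the differences of MFOL and NeuronLike-Slc17a6 are added without intervals, and do not enter the tally over settings. Other values named were chosen after they were seen. Comparisons and classes were chosen with earlier results of these data known.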

Additional observations from a re-analysis of the deposited data

Results flagged for a closer look

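In 2 classes the cKO library lay on one side of its WT counterpart in males and on the other side in females, each beyond counting error. The OPC log2 odds ratio, cKO over WT, was higher in females than in males by 0.716, with shares of 16.5% in cKO against 20.2% in WT in males and 21.6% against 17.6% in females. For NeuronLike-Gad1 the female minus male difference was -1.14, with shares of 1.42% in cKO against 0.910% in WT in males and 1.62% against 2.28% in females. Each value rests on 1 library per sex and genotype, so the difference between the sexes was not tested over replicates.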

How the results depend on the processing

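No class share, astrocyte group or ratio was called with the 4 VGlut2 libraries alone, a pseudocount of 2, an arcsine scale or any library left out. For class shares alone, edgeR with and without TMM factors, a filter on low counts and a total without neuron-like and VLMC nuclei also called 0. A block for the same-sex pair (the replicate block) gave 0 calls for every measure, with a lowest adjusted p in limma of 0.976 for shares and 0.0709 for relative UMIs (4 classes unadjusted). The labels carry no replicate numbers, so the block is the same-sex pair, in which sex and day cannot be told apart. Over the named values, 437 kept direction and call and 33 turned in sign. Many of these could not have turned. Leaving out an Ip3r2 library, the 4 VGlut2 libraries alone and the block each keep the cKO minus WT estimate unchanged and alter its error only. The tally is therefore no measure of how stable the directions are. UMIs per nucleus called 0 to 8 classes with 1 library left out, with 8 without cKO replicate 1 (male) and 1 without cKO replicate 2 (female). In these fits the lone library is assumed to vary like the others.

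Estimates that turned in sign when 1 library was left out ranged as follows. Shares ran from -0.12 to 0.47 in MOL and from -0.23 to 0.25 in OPCs. Astrocyte groups ran from -0.14 to 0.43 in deep, -0.63 to 0.39 in mid and -0.019 to 0.11 in WM. Ratios ran from -0.63 to 1.22 in Gad1 and -0.13 to 0.52 in MFOL and MOL. UMIs ran from -0.15 to 0.32 in astrocytes, -0.12 to 0.33 in microglia, -0.11 to 0.21 in OPCs, -0.055 to 0.41 in mitotic astrocytes and -0.0099 to 0.34 in PC. Relative UMIs ran from -0.069 to 0.023 in OPCs and -0.032 to 0.050 in astrocytes. Genes at equal UMIs ran from -0.0082 to 0.012 in astrocytes, -0.0082 to 0.0083 in microglia, -0.020 to 0.040 in OPCs and -0.017 to 0.044 in NFOL, and with nuclei of 500 to 4000 UMIs alone microglia had -5.3e-07. Mitochondrial shares ran from -0.039 to 0.044 in OPCs, -0.021 to 0.093 in EC, -0.018 to 0.0049 in astrocytes and -0.034 to 0.025 in microglia. The spread of UMIs ran from -0.20 to 0.059 in OPCs. Estimates that kept their sign ranged from -0.24 to -0.11 (astrocyte share), 0.086 to 0.28 (microglia share), -0.26 to -0.094 (PVM ratio) and 0.070 to 0.31 (VLMC-Pia UMIs). For relative UMIs they ranged from 0.034 to 0.20 (VLMC-Pia), 0.076 to 0.13 (mitotic astrocytes), -0.16 to -0.040 (EC) and 0.0081 to 0.051 (microglia). For the spread they ranged from -0.42 to -0.27 (VLMC-Col15a1), -0.40 to -0.16 (PC), 0.019 to 0.45 (mitotic microglia), -0.22 to -0.00013 (astrocytes) and -0.20 to -0.035 (microglia). The rest were 0.037 to 0.087 (VLMC-Pia) and 0.011 to 0.063 (VLMC-Slc16a11) for mitochondrial shares and 0.00089 to 0.019 (NeuronLike-Gad1) for genes at equal UMIs. The cause of these shifts was not tested.

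Same-sex mixing was 0.981 in tSNE coordinates, an alternative chosen after seeing the data, and mixing of different sexes was 0.927 with 50 neighbours. The share of nuclei with any mitochondrial UMI gave no value, since 0 nuclei lacked one. With the mean of log2 UMIs, relative UMIs had 0.05 in mitotic astrocytes and -0.05 in EC. Intervals for single libraries cover counting error only.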
